A study of Caenorhabditis elegans with 6 samples.

Results

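The UDP-glucuronosyltransferase (*ugt*) genes of *Caenorhabditis elegans* were examined in wild-type and *mbl-1(tm1563)* mutant adults. A gene was taken as a member if its symbol begins with *ugt-* and if it had at least 10 counts over the 6 libraries together. Of the 67 *ugt* genes in the deposited counts 62 were members, out of 46726 genes in all, of which 15690 had at least 10 counts. The members just inside this limit were *ugt-10* and *ugt-15*, with 13 counts each. The 5 genes just outside it were *ugt-35* with 7 counts, *ugt-34* and *ugt-38* with 6 each, *ugt-42* with 2 and *ugt-67* with 1. All 67 are annotated as protein-coding.

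UDP-glucuronosyltransferases are membrane enzymes of the endoplasmic reticulum that join a sugar from a UDP-sugar, such as glucuronic acid or glucose, to small lipophilic molecules. The conjugate is more soluble in water and can be carried out of the cell by transporters. This second phase of detoxification follows oxidation by enzymes such as the cytochrome P450s, and in *C. elegans* the intestine is a main site of it. The nematode family is large and many of its genes lie side by side in the genome. MBL-1 is the worm muscleblind protein, which binds RNA and regulates alternative splicing. The substrates of the single worm enzymes are not described here.

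Whole animals of 2 strains were compared, 3 libraries from the wild-type strain N2 and 3 from *mbl-1(tm1563)* mutants, which carry a deletion allele predicted to be null. Both strains were grown at 20°C on HT115 bacteria with the empty RNAi vector, were moved at the L4 stage to plates with 10 µM 5-fluorouracil, which stops hatching of progeny, and were frozen as day 2 adults, day 5 from hatch. The replicates are given as biological, and the 6 libraries shared a sequencing lane. Because RNA came from whole animals, fewer cells of a type and less RNA per cell cannot be told apart.

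The libraries held 17574738 to 20750318 counts on genes, of which 0.0913% to 0.115% fell on the 67 *ugt* genes. The targeted gene was checked first, and *mbl-1* gave 233, 245 and 228 counts in N2 replicates 1 to 3, against 70, 138 and 106 in the mutants. Its log2 fold change was -1.14 (SE 0.23, adjusted p = 0.0342), and the counts cover the whole gene, the parts outside the deletion included. The adjusted p was 0.132, 0.0991 and 0.142 without N2 replicates 1, 2 and 3 and 0.154 without mutant replicate 3. Mutant replicate 1 stood somewhat apart: the chi-square per degree of freedom between its counts and those of mutant replicates 2 and 3 was 53.9 and 22.4, against 11.3 between replicates 2 and 3 and 3.59 to 8.20 among the N2 libraries.

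Levels within the family spanned about 3 orders of magnitude. They are given here as CPM (counts scaled to the same TMM-adjusted library total in every library) per kb of exon, which allows genes of different length to be compared. In N2 the mean level ran from 0.0783 for *ugt-10* to 92.7 CPM per kb for *ugt-62*, with a median of 3.67. There were 17 members under 1 CPM per kb and 17 over 10. Exon lengths ranged from 1542 to 2909 bases with a median of 1712, so order by CPM and order by CPM per kb are much alike.

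**Figure D1:**
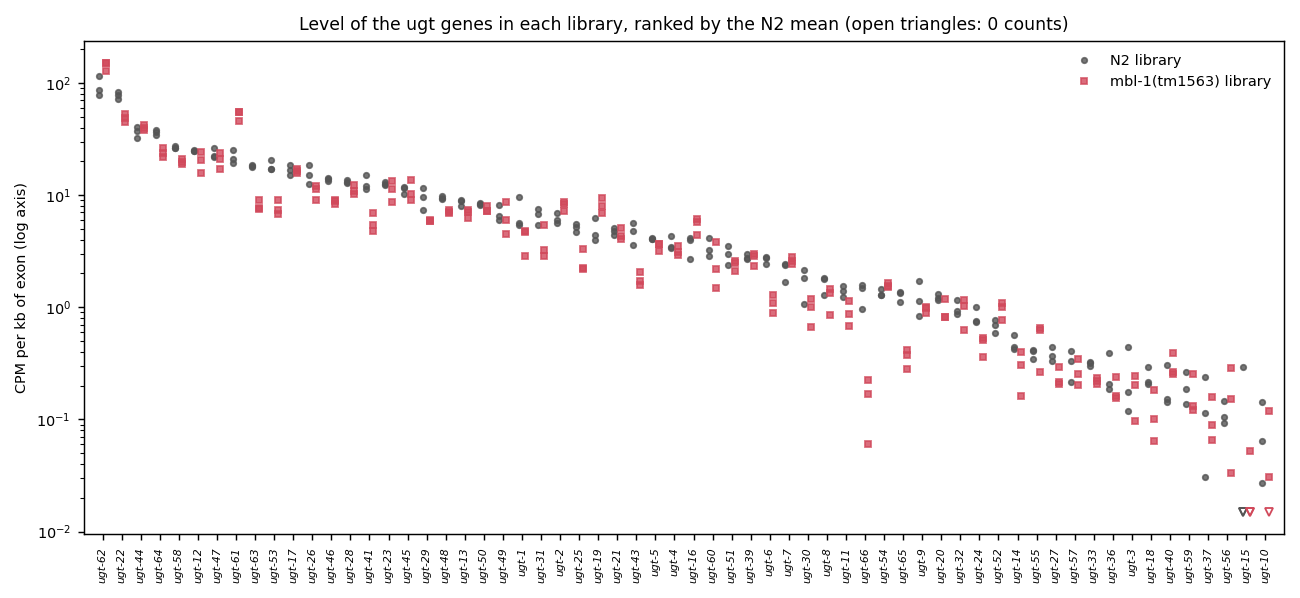
Each point is the level of a *ugt* gene in 1 library, in CPM per kb of exon on a log axis, for N2 (grey circles) and *mbl-1(tm1563)* (red squares), with the 62 genes ranked by their N2 mean and 0 counts drawn as open triangles at the bottom. The levels run from *ugt-62* at 92.7 CPM per kb in N2 to *ugt-10* at 0.0783, and *ugt-61*, *ugt-63*, *ugt-53*, *ugt-66* and *ugt-65* are among the genes whose 2 strains separate clearly.

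The 8 highest members in N2 were *ugt-62* (92.7 ± 19 CPM per kb, SD, n = 3), *ugt-22* (77.4 ± 5.78), *ugt-44* (36.7 ± 4.39), *ugt-64* (36.2 ± 1.86), *ugt-58* (26.6 ± 0.491), *ugt-12* (24.9 ± 0.347), *ugt-47* (23.3 ± 2.37) and *ugt-61* (21.8 ± 2.92). In this order the libraries of *ugt-62* and *ugt-22* overlapped, as did those of *ugt-44* and *ugt-64*, of *ugt-12* and *ugt-47* and of *ugt-47* and *ugt-61*, while the other neighbours did not overlap. In the mutants the order was different near the top. *ugt-62* had 142 CPM per kb and was followed by *ugt-61* with 51.9, *ugt-22* with 49 and *ugt-44* with 40.2.

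More *ugt* genes were lower than higher in the mutants. After the filter on low counts 51 members were tested by edgeR's quasi-likelihood test, with p-values adjusted over all 12335 genes tested. With both an adjusted p below 0.05 and a 2-fold change or more required, 7 *ugt* genes (13.7%) fell and 1 (1.96%) rose, against 1.14% of all tested genes that fell and 0.697% that rose. At an adjusted p under 0.05 with no limit on the fold, 13 (25.5%) fell and 1 (1.96%) rose, against 3.67% and 1.79% of all tested genes, and 37 did not pass. At an unadjusted p under 0.05, 22 were lower and 5 higher, against 14.1% and 9.79% of all tested genes. The fitted log2 fold change was negative for 41 of the 51 (80.4%), against 55.2% of all genes, and the median was -0.32 against -0.04. All mutant libraries were below all N2 libraries for 25 of the 51 (49%) and above them for 8 (15.7%), where all tested genes gave 17.9% and 14.7%.

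The count of genes that fell depended on which libraries entered. It was 5 without N2 replicate 1, 6 without N2 replicate 3 and 6 without mutant replicate 3, where the counts over all genes dropped from 453 to 101, 111 and 78. Without mutant replicate 1 it was 18 of 52 tested (34.6%), against 929 of all genes (7.39%), and the 5 added genes were *ugt-12*, *ugt-28*, *ugt-31*, *ugt-60* and *ugt-11* (adjusted p = 0.0222, 0.0400, 0.00247, 0.0293 and 0.0475). At 2-fold it was 4 without N2 replicate 1, 5 without N2 replicate 3 or mutant replicate 3, and 9 without mutant replicate 1. In the same order, 0.494%, 0.627%, 0.436% and 1.56% of all tested genes fell at 2-fold in these fits. The count of genes that rose at any fold was 5 of 52 (9.62%) without mutant replicate 2, where 896 of all genes (7.10%) rose, and 3 of 51 (5.88%) without N2 replicate 2, where 125 (0.993%) did. *ugt-62* and *ugt-19* were added in both and *ugt-2* and *ugt-16* in the first (adjusted p = 0.0353 and 0.0278), while *ugt-29* was added to the genes that fell without N2 replicate 2 (adjusted p = 0.0248). The added genes were named after their values were seen. Scaled by library size alone, 36 of the 51 changes were negative and the median was -0.24, against a median of 0.04 for all genes.

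**Figure D2:**
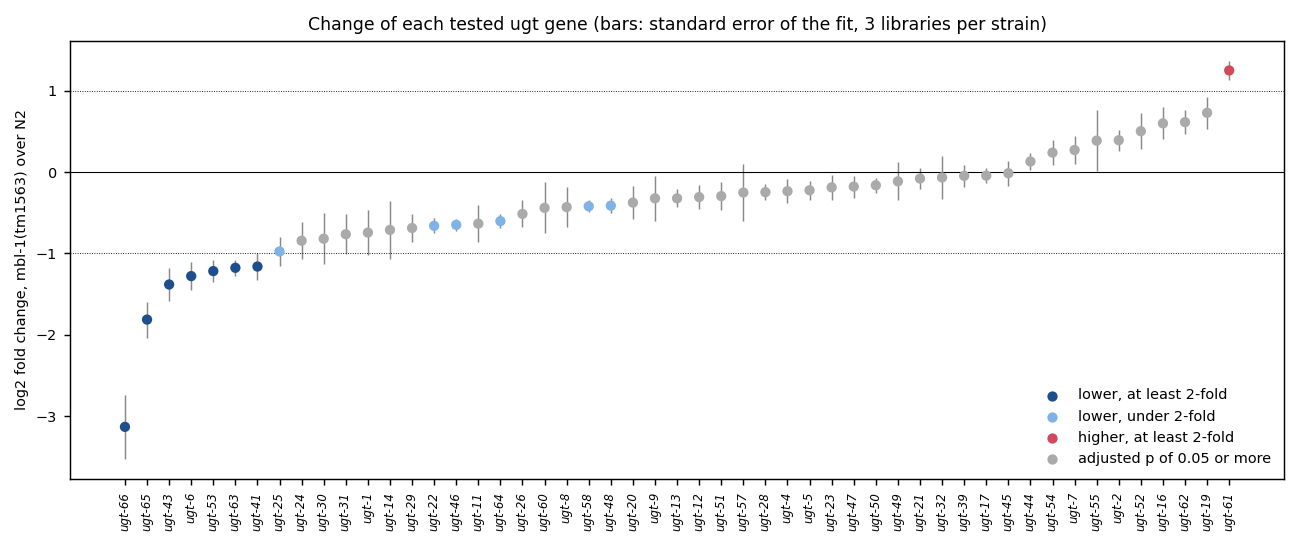
The log2 fold change of each of the 51 tested *ugt* genes, mutant over N2, is plotted in rising order with its standard error from the fit (3 libraries per strain) and dotted lines at a 2-fold change. The 7 dark blue genes at the left fell at least 2-fold, the 6 light blue genes fell by less, *ugt-61* at the right rose 2.38-fold, and the 37 grey genes did not pass an adjusted p of 0.05.

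*ugt-61* (chromosome V, 4742422 to 4745373, plus strand) was the only *ugt* gene past the threshold that was higher in the mutants. It stood at 34.0, 44.1 and 37.1 CPM in N2 and at 97.8, 80.3 and 96.3 CPM in the mutants. Each mutant library was well above the highest N2 library. The mean went from 38.4 ± 5.15 to 91.5 ± 9.71 CPM (SD, n = 3), a 2.38-fold rise (log2 fold change 1.25, SE 0.12, adjusted p = 0.00249). The rise held at 2-fold under all 17 alternative settings.

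*ugt-66* (chromosome III, 6192116 to 6194580, minus strand) showed the deepest fall. Its counts were 51, 33 and 43 in N2 replicates 1 to 3, against 2, 5 and 7 in the mutants. The strains did not overlap, and the mutant values rest on very few reads. Every mutant library was under the filter's minimum count of 10, so the gene was tested only through its N2 counts. It is counted among the genes that fell. The log2 fold change was -3.13 (SE 0.40, adjusted p = 0.00651), and it ranged from -3.54 to -2.74 with 1 library left out at a time.

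*ugt-65* (chromosome IV, 12420683 to 12432636, plus strand) was similarly low, with 2.59, 2.14 and 2.60 CPM in N2 and 0.725, 0.795 and 0.546 CPM in the mutants. All mutant libraries were below a CPM of 1 and all N2 libraries above 2. The log2 fold change was -1.81 (SE 0.22, adjusted p = 0.00535). By N2 level per kb *ugt-66* ranked 41 and *ugt-65* ranked 43 among the 62 members, so both of the steepest falls were in genes of low abundance.

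*ugt-63* and *ugt-53* were of middle to high abundance, and both lie on chromosome V (5108180 to 5110772, minus strand, and 2849343 to 2852028, plus strand). *ugt-63* stood at 28.2, 27.4 and 28.6 CPM in N2 and at 13.9, 11.8 and 11.6 CPM in the mutants, and its log2 fold change was -1.18 (SE 0.10, adjusted p = 0.00166). *ugt-53* stood at 26.8, 26.8 and 32.1 CPM in N2 and at 14.4, 10.8 and 11.6 CPM in the mutants, and its log2 fold change was -1.22 (SE 0.14, adjusted p = 0.00410). In both genes replicate 1 was the highest mutant library and was still far below the lowest N2 library. *ugt-66*, *ugt-65*, *ugt-63* and *ugt-53* fell at 2-fold under all 17 alternative settings.

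The other 3 genes that fell at least 2-fold were *ugt-43*, *ugt-6* and *ugt-41*. *ugt-43* (chromosome IV, 10464588 to 10467297) stood at 10.9, 6.92 and 9.23 CPM in N2 and at 3.99, 3.29 and 3.06 CPM in the mutants (log2 fold change -1.38, SE 0.20, adjusted p = 0.0107). *ugt-6* (chromosome V, 12795481 to 12798224) stood at 4.80, 4.13 and 4.67 CPM in N2 and at 2.17, 1.87 and 1.53 CPM in the mutants (-1.28, SE 0.17, adjusted p = 0.00840). *ugt-41* (chromosome V, 7161068 to 7163595) stood at 27.1, 20.5 and 21.5 CPM in N2 and at 9.78, 8.63 and 12.5 CPM in the mutants (-1.16, SE 0.17, adjusted p = 0.0102). The strains of all 3 were separated by a gap. Without N2 replicate 1 the adjusted p was 0.0506 for *ugt-43*, 0.0529 for *ugt-6* and 0.0525 for *ugt-41*. Without N2 replicate 3 and without mutant replicate 3 it was 0.0611 and 0.0771 for *ugt-43* and 0.0507 and 0.0552 for *ugt-6*.

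**Figure D3:**
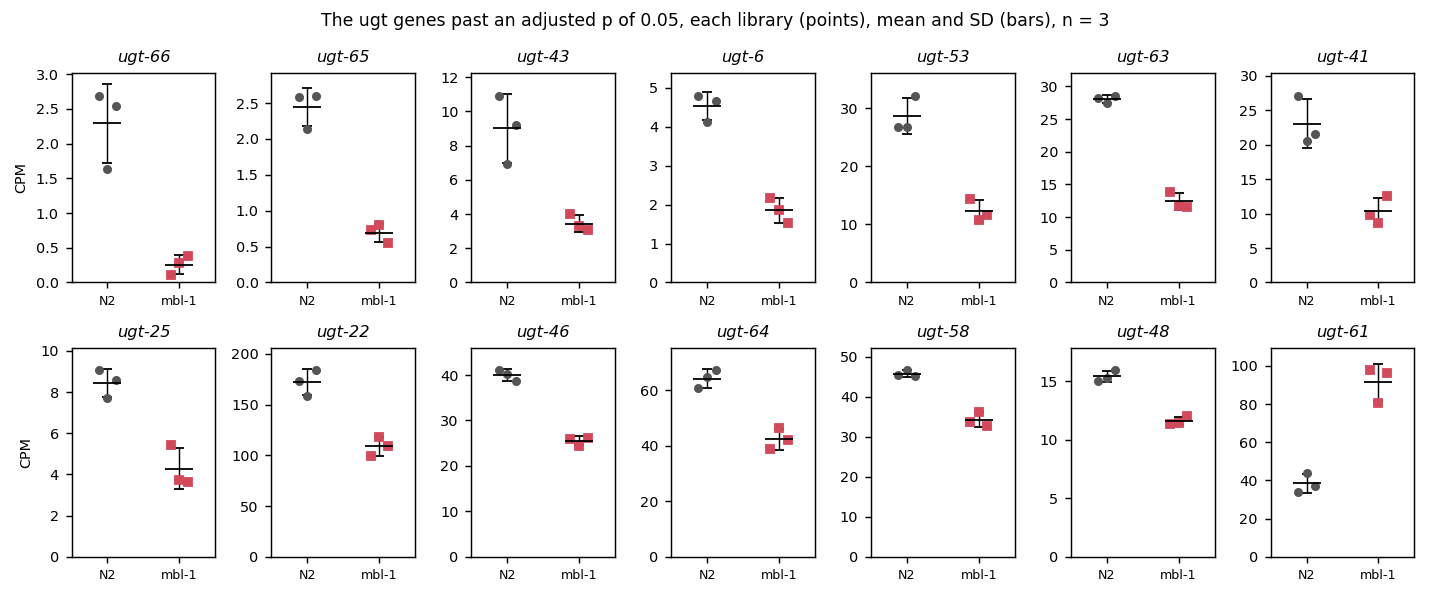
The CPM of the 14 *ugt* genes past an adjusted p of 0.05 is shown for each library (grey circles, N2; red squares, *mbl-1(tm1563)*), with the mean and SD of 3 libraries as bars and each axis starting at 0. In every panel the strains do not overlap, which the choice of genes by adjusted p made likely in advance. Of the 14 genes 13 are lower in the mutants and *ugt-61* is higher.

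A further 6 genes fell by less than 2-fold, and they include 3 of the 8 most abundant members. *ugt-22* stood at 173.0, 158.6 and 184.2 CPM in N2 and at 98.9, 118.4 and 109.1 CPM in the mutants, a log2 fold change of -0.66 (SE 0.09, adjusted p = 0.00879). *ugt-64* went from 60.8, 64.6 and 67.3 CPM to 38.7, 46.2 and 42 CPM (-0.60, SE 0.09, adjusted p = 0.0107), and *ugt-58* from 45.4, 46.7 and 45.1 CPM to 33.8, 36.2 and 32.6 CPM (-0.42, SE 0.08, adjusted p = 0.0222). In all 3 the strains did not overlap and the replicates lay close together. *ugt-46* on the X chromosome was as tight, with 41.1, 40.3 and 38.7 CPM in N2 and 26.0, 24.4 and 26.2 CPM in the mutants (-0.65, SE 0.08, adjusted p = 0.00489), and it passed under all 17 alternative settings. *ugt-22*, *ugt-64* and *ugt-58* did not pass without N2 replicate 1 (adjusted p = 0.0587, 0.0522 and 0.114), without N2 replicate 3 (0.0591, 0.0735 and 0.114) or without mutant replicate 3 (0.0681, 0.0771 and 0.127), and *ugt-58* did not without N2 replicate 2 (0.0882) or with library size alone as the scale (0.0669).

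*ugt-25* was the nearest to a 2-fold fall among these genes. It stood at 9.08, 7.71 and 8.58 CPM in N2 and at 5.44, 3.75 and 3.66 CPM in the mutants, a log2 fold change of -0.98 (SE 0.17, adjusted p = 0.0220), and it did not pass without N2 replicate 1, 2 or 3 or without mutant replicate 3 (adjusted p = 0.111, 0.0564, 0.102 and 0.115). *ugt-48* had the weakest call of all. Its values were 15, 15.3 and 16 CPM in N2 and 11.3, 11.5 and 12 CPM in the mutants (-0.41, SE 0.09, adjusted p = 0.0435), and it passed in 4 of the 17 alternative settings. Of the settings that left out a library it passed in 1, the one without mutant replicate 1.

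Several members came close to the threshold without passing it. *ugt-62*, the most abundant member, stood at 132.5, 193.3 and 144.8 CPM in N2 and at 253.4, 215.7 and 252.1 CPM in the mutants. All mutant libraries were above all N2 libraries, but N2 replicate 2 was close to mutant replicate 2, and the log2 fold change of 0.62 (SE 0.14) had an adjusted p of 0.0513. It passed under 9 of the 17 alternative settings. *ugt-19* had the largest positive change after *ugt-61*, with 6.70, 10.6 and 7.45 CPM in N2 and 15.9, 11.7 and 13.5 CPM in the mutants (0.73, SE 0.19, adjusted p = 0.0727). It passed under 5 of the 17, among them DESeq2 (adjusted p = 0.00777) and the fits without N2 replicate 2 and without mutant replicate 2 (0.0465 and 0.0236), and *ugt-62* passed without the same libraries (0.0200 and 0.0153). Of the genes with negative values, *ugt-29* (-0.69, SE 0.17, adjusted p = 0.0564) and *ugt-24* (-0.84, SE 0.23, adjusted p = 0.0766) were about as near to the threshold and did not overlap between the strains. *ugt-29* passed under 4 of the 17 and *ugt-24* under none, and both were chosen after their values were seen.

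Of the remaining genes among the 8 most abundant, *ugt-44* had a log2 fold change of 0.13 (SE 0.10, adjusted p = 0.437), *ugt-12* of -0.31 (SE 0.15, adjusted p = 0.250) and *ugt-47* of -0.18 (SE 0.13, adjusted p = 0.442). In *ugt-12* the N2 libraries stood at 42.9, 41.7 and 42.2 CPM and the mutant libraries spread over 41.0, 26.4 and 35.0 CPM. Without mutant replicate 1, the highest of these, its log2 fold change was -0.46 (SE 0.11, adjusted p = 0.0222). The libraries of *ugt-44* and *ugt-47* overlapped between the strains. No tested member changed at least 2-fold without passing the adjusted p.

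The 11 members left out by the filter had 13 to 55 counts in total and at most 14 in any library. The mutant mean was below the N2 mean for 9 of them and above it for 2. *ugt-15* was uneven within N2, with 11 counts in replicate 1 and 0 in replicates 2 and 3. Where the filter was dropped and all 62 members were tested, none of these 11 passed an adjusted p of 0.05. The size of change that could be detected at these counts was not measured.

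The level of the whole family was taken as the sum over its members. The 62 members summed to 1082, 1089 and 1090.3 CPM in N2 and to 1051, 939.9 and 1026 CPM in the mutants. On this scale the mutant libraries were all lower, with means of 1087 ± 4.40 and 1005 ± 58.2 CPM (SD, n = 3), a difference of -81.9 CPM. A two-sided exact permutation test of 3 libraries against 3 cannot give a p below 0.1, and none was run. The difference was -19.9 CPM with library size alone as the scale and -15.5 CPM without mutant replicate 2. As a share of the counts on genes, with no TMM factor, the strains overlapped. All 67 *ugt* genes together took 0.107%, 0.106% and 0.105% in N2 and 0.115%, 0.0913% and 0.105% in the mutants.

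Within this sum the shares of single genes differed between the strains. The 13 genes that fell summed to 447.4, 422.7 and 461.1 CPM in N2 and to 259.2, 278.0 and 266.7 CPM in the mutants, so that their share of the family went from 40.8% to 26.6%. These genes were picked for their fall, and their sum is a description. *ugt-62* took 14.4% of the family in N2 and 23.9% in the mutants, and *ugt-61* took 3.53% and 9.10%. *ugt-22* was the largest single contributor in N2 with 15.8% and had 10.8% in the mutants. Without *ugt-61* and *ugt-62* the family summed to 892.1 ± 34.8 CPM in N2 and to 673.6 ± 28.0 CPM in the mutants.

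**Figure D4:**
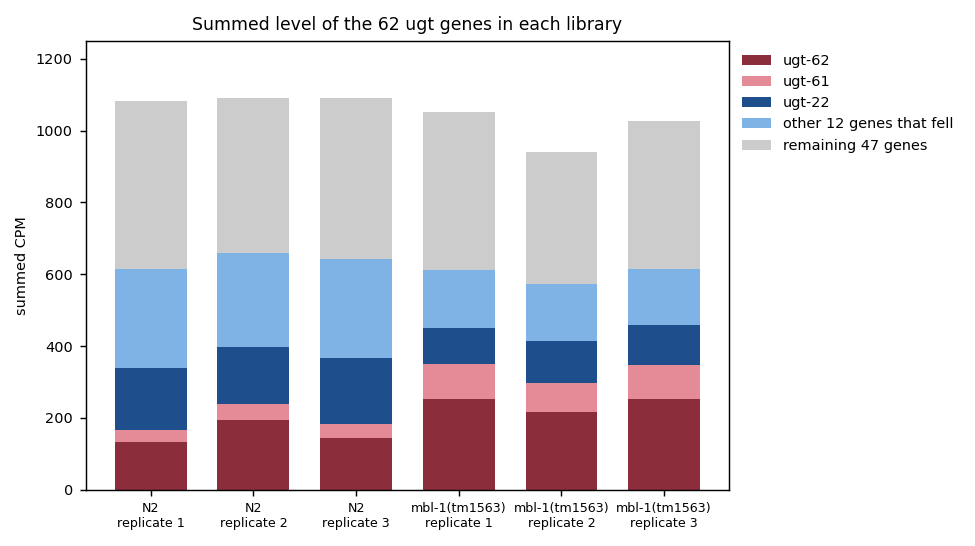
Stacked bars give the summed CPM of the 62 *ugt* genes in each library, split into *ugt-62*, *ugt-61*, *ugt-22*, the other 12 genes that fell and the remaining 47 genes. The bars reach 1082 to 1090.3 CPM in N2 and 939.9 to 1051 CPM in the mutants, and the blue parts are smaller and the red parts larger in the mutants.

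The changes were also set against the position of the genes. The 67 *ugt* genes lie on all 6 chromosomes, 42 of them on V, 12 on IV, 5 on I, 4 on X, 3 on III and 1 on II. Runs of neighbouring *ugt* genes at most 20000 bases apart numbered 10 and held 37 genes. Of the 24 tested genes in runs 4 fell and none rose, and of the 27 tested genes that stand alone 9 fell and 1 rose. The difference between these counts was not tested. Genes on V gave 6 of the 13 that fell and also *ugt-61*, out of 28 tested there. Over all tested genes 3.67% fell and 1.79% rose at the same limit on the adjusted p.

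Neighbours within a run often differed in value. *ugt-43* and *ugt-44* lie 2443 bases apart on the same strand of chromosome IV, and their log2 fold changes were -1.38 and 0.13. In the run of 7 genes from *ugt-5* to *ugt-15* on chromosome V (12790676 to 12830114), *ugt-6* fell with -1.28, whereas *ugt-4* at 144 bases from it had -0.23 (adjusted p = 0.363) and *ugt-5* had -0.22 (adjusted p = 0.274). The neighbours *ugt-1* and *ugt-2* had -0.74 and 0.39, and *ugt-19* and *ugt-20* had 0.73 and -0.37, none of which passed. The differences between neighbours were not tested.

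In 4 runs with more than 1 tested member all values were negative, and 2 of these had 3 or more tested members. On chromosome I *ugt-26*, *ugt-28* and *ugt-25* had log2 fold changes of -0.51, -0.25 and -0.98, with no overlap between the strains in any of the 3, and *ugt-25* passed. All mutant libraries were likewise below all N2 libraries for 49% of the tested members and 17.9% of all tested genes. In the run of 8 genes from *ugt-12* to *ugt-13* on chromosome V (4887165 to 4911399) the 6 tested genes ranged from -0.71 to -0.31, and none passed with all libraries, whereas *ugt-12* and *ugt-11* passed without mutant replicate 1 (log2 fold changes -0.46 and -0.85, adjusted p = 0.0222 and 0.0475). The genes named here for their place in a run, outside the rule for naming, were chosen after their values were seen.

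**Figure D5:**
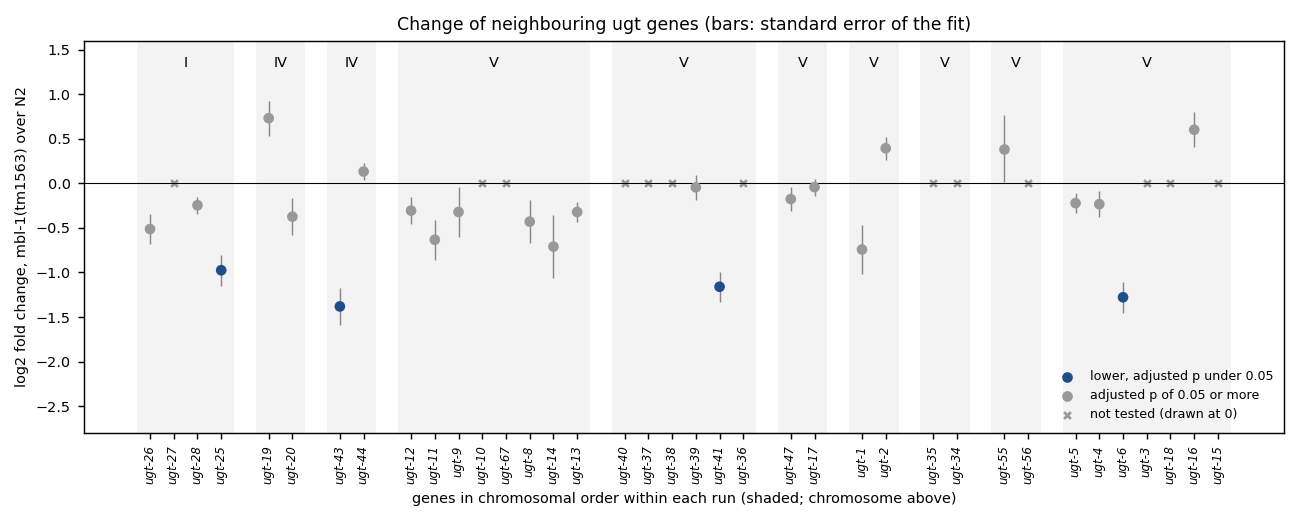
The log2 fold change of each *ugt* gene that lies in a run of neighbours is plotted in chromosomal order, with its standard error from the fit, each run shaded and its chromosome above. The 4 blue genes, *ugt-25*, *ugt-43*, *ugt-41* and *ugt-6*, fell and stand in 4 different runs beside grey genes that did not pass an adjusted p of 0.05, and crosses at 0 mark genes that were not tested.

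The nearest protein-coding genes on either side of the 14 members past the threshold included 24 that are not *ugt* genes. Of these 12 were tested, with log2 fold changes from -0.64 to 0.35, and none passed an adjusted p of 0.05. Over all tested genes 3.67% fell and 1.79% rose at this limit, so none among 12 is near those shares. Some exons overlap. *ugt-22* shares 309 bases with *srz-29* on the opposite strand, which had 0 counts in all libraries, *ugt-48* shares 121 with *cft-1*, *ugt-64* shares 72 with *C07G3.10* and *ugt-25* shares 26 with *mlst-8*. Reads were counted without regard to strand and reads over several genes were left out, so reads in these stretches are not in the counts of either gene.

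Reads that align to several places were left out as well, and near-identical *ugt* copies may therefore be undercounted. The share of such reads was 9.74% to 9.87% in N2 and 7.34% to 8.08% in the mutants. The part of this difference in the *ugt* counts was not tested.

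Genes that supply or use UDP-sugars were listed as the substrate side of the reaction. Of 16 listed genes 15 were tested, 1 rose and 1 fell (6.67% each, against 1.79% and 3.67% of all tested genes), and the median log2 fold change was -0.09. *gale-1*, which encodes the epimerase that interconverts UDP-glucose and UDP-galactose, rose from 65.1, 80.0 and 72.0 CPM to 116.7, 107.5 and 110.5 CPM (log2 fold change 0.62, SE 0.09, adjusted p = 0.00951). *tps-2*, a trehalose 6-phosphate synthase that consumes UDP-glucose, fell by 0.46 on the log2 scale (SE 0.10, adjusted p = 0.0426). *sqv-4*, the UDP-glucose dehydrogenase that makes UDP-glucuronic acid, is named for its role, and its values were 288.8, 301.5 and 297.5 CPM in N2 and 279.7, 315.1 and 298.6 CPM in the mutants (0.01, SE 0.07, adjusted p = 0.947).

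Among regulators of detoxification 21 of 22 listed genes were tested, none rose and 1 fell (4.76%, against 3.67% of all tested genes). This was *elt-3*, a GATA factor of the hypodermis, at 11, 11.7 and 10.5 CPM in N2 and 6.0, 7.78 and 7.10 CPM in the mutants (log2 fold change -0.67, SE 0.13, adjusted p = 0.0263). The other 20 did not pass, and the median of the list was -0.10. None of the 4 tested flavin mono-oxygenases (*fmo*) passed.

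Transporters of the ABC class, some of which can carry conjugates out of cells, also had more negative than positive changes in the mutants. Of 31 tested genes with the prefixes *pgp*, *mrp*, *haf* and *abt* 3 fell (9.68%, against 3.67% of all tested genes) and none rose. None of the 3 was an *mrp* gene. Log2 fold changes were negative for 24 (77.4%, against 55.2% of all tested genes), and the median was -0.27. The summed levels overlapped between the strains, at 1335 to 1379 CPM in N2 and 882.9 to 1355 CPM in the mutants. *pgp-9*, a P-glycoprotein, stood at 34.0, 35.5 and 32.5 CPM in N2 and 21.4, 19.8 and 21.3 CPM in the mutants (log2 fold change -0.71, SE 0.08, adjusted p = 0.00486). *haf-9* had -0.49 (SE 0.10, adjusted p = 0.0363) and *pgp-2* -0.34 (SE 0.08, adjusted p = 0.0440), and both encode ABC transporters.

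Other detoxification families were counted for comparison. Of 52 tested cytochrome P450 genes (*cyp*) 3 rose and 10 fell, with a median log2 fold change of -0.17. Of 29 tested glutathione S-transferase genes (*gst*) 1 rose and 2 fell, with a median of 0.02, and of 28 tested *dhs* genes, short-chain dehydrogenases, 2 fell, with a median of -0.11. The share that fell was 25.5% for *ugt*, 19.2% for *cyp*, 6.90% for *gst* and 7.14% for *dhs*, against 3.67% of all tested genes, and the 3 *cyp* genes that rose were 5.77%, against 1.79%. Differences between families were not tested.

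Markers of cell types were also set against the strains, where 3.67% of all tested genes fell and 55.2% had negative log2 fold changes. Of the 10 intestinal markers 1, the peptide transporter *pept-1*, fell (10.0%), 9 had negative values, and their sum was 1726 to 1908 CPM in N2 and 1300.2 to 1787 CPM in the mutants. Of the 6 markers of body wall muscle *myo-3* and *unc-54* fell (33.3%) and all had negative values, with sums of 813.8 to 917.2 and 494.1 to 717.8 CPM. Of the 8 neuronal markers *egl-3* and *ida-1* fell (25.0%) and 6 had negative values, with sums of 133.2 to 135.2 and 99.6 to 111.6 CPM. In the pharynx none of 5 passed and all 5 had negative values (58.5 to 64.4 and 41.5 to 49.1 CPM). The sums of muscle, neurons and pharynx did not overlap between the strains, whereas the intestinal sums did. Abundant genes weigh most in a sum. The largest part was *asp-1* in the intestine (948.3 CPM in N2, 792.1 in the mutants) and *unc-54* in muscle (388.0 and 259.6). The muscle markers *unc-54*, *unc-15*, *unc-22* and *hlh-1* were lowest in mutant replicate 1, while *myo-3* and *unc-27* were not. *unc-22* (23368 exon bases) had -1.01 and *unc-27* (933) -0.16. In the pharynx *myo-1* (6457) had -0.87 and *tni-4* (821) -0.13, but *tnc-2* (819) had -0.49. The part of exon length or of replicate 1 in these values was not tested. Of the 8 hypodermal markers 6 were tested, *elt-3* fell (16.7%) and 3 had negative values (378.2 to 410.9 and 340.9 to 378.3 CPM). Of the 10 germline markers none passed and 5 had negative values (6540 to 7000.2 and 5848 to 7819 CPM). Of the 2 coelomocyte markers neither passed and 1 had a negative value (3.55 to 5.07 and 2.02 to 6.16 CPM). The 5 sperm markers found of 6 listed were too low to be tested, with sums of 0.0995 to 0.414 CPM in N2 and 0.511 to 1.14 CPM in the mutants. No marker found was at 0 in all libraries. The part of these shifts in the *ugt* values was not tested.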

How the data were processed

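Stranded poly(A) libraries were sequenced from day 2 adults, 3 libraries of each strain. Alignment to WBcel235 by the authors used STAR, and reads were counted per gene with HTSeq without regard to strand (versions are not given in the sources used here), and the deposited values are raw counts. Symbols, positions and exon lengths came from Ensembl annotation release 115 of the same assembly. Sequences of the *ugt* promoters and proteins were not analysed here.

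Genes were filtered with filterByExpr (minimum count 10, minimum total 15), scaled by TMM and tested in R 4.3.3 with edgeR 4.0.16 (quasi-likelihood, robust, strain as the only factor). The Benjamini-Hochberg adjustment was over all 12335 genes tested, and the fit was tested on simulated data. Alternatives were DESeq2 1.42.0, the earlier quasi-likelihood form, other scalings and filters, a length correction (a smoothed trend on exon length, in R), the replicate number as a block, and each library left out. No libraries were duplicates (lowest chi-square per degree of freedom 3.59).

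Named were *mbl-1*, the *ugt* genes past an adjusted p of 0.05, the 8 highest in N2, the largest other rise, and up to 4 passing genes of each UDP-sugar, regulator, *fmo* and exporter list. The members, lists and rules were chosen with earlier results of these data known.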

Additional observations from a re-analysis of the deposited data

Results flagged for a closer look

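Reads that overlapped several genes, which the gene counts leave out, made up a larger share in every mutant library than in any N2 library. The share of all reads listed was 0.821% to 0.826% in N2 and 0.879% to 1.01% in the mutants, with a mutant mean of 0.952%. This drew attention because these reads belong to no gene count and so to no comparison above. Among the *ugt* genes past the threshold, *ugt-22*, *ugt-48*, *ugt-64* and *ugt-25* share exon bases with a protein-coding gene, and the part of these reads in their values was not tested.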

How the results depend on the processing

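Of 323 values of the 19 named *ugt* genes under the 17 alternatives none changed sign, 36 no longer passed an adjusted p of 0.05 and 15 newly passed. The 19 were named for passing, for a high N2 level or for a rise. Among unnamed members, *ugt-17*, *ugt-21*, *ugt-23*, *ugt-32*, *ugt-39*, *ugt-45* and *ugt-49* were negative in the main fit and positive under some alternatives. Of the 14 genes past the threshold 6 passed under all 17 alternatives, and 12 under all 11 that kept every library. The count of *ugt* genes that rose at any fold was 3 with DESeq2, with the length trend removed and with that and the replicate block. This was 5.88% in each, against 3.53%, 4.1% and 3.13% of all tested genes. With no filter on low counts 3 rose (4.84%, against 1.44%). The count was 2 with RLE size factors, library size alone and at least 10 counts in all libraries together. These were 3.92%, 3.92% and 3.23%, against 2.12%, 2.07% and 1.57% of all tested genes. With library size alone the median log2 fold change of the family was -0.24 and the difference in summed CPM -19.9. With 1 library left out, the *ugt* genes that fell at 2-fold numbered 4 to 9, against 0.436% to 1.84% of all tested genes. Those that fell at any fold numbered 5 to 18 (all tested genes 0.618% to 8.72%). Those that rose at any fold numbered 1 to 5 (all tested genes 0.301% to 7.1%). In these fits the family median ran from -0.39 to -0.21 and the difference in summed CPM from -102.5 to -15.5. The log2 fold change of *mbl-1* ran from -1.39 to -0.89. The cause of these shifts was not tested.

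Replicate numbers recur in both strains. The correlation of same-numbered deviations was 0.11, 0.01 and 0.13, against -0.16 to 0.09 for the other pairs. The libraries numbered 1 and those numbered 3 correlated best with each other, and those numbered 2 did not. With 3 libraries per strain, correlations this small cannot decide whether the numbers pair the samples. With the replicate block 12 *ugt* genes (23.5%) fell and 1 (1.96%) rose at any fold, against 2.25% and 0.949% of all tested genes. In that fit *ugt-58* and *ugt-48* had adjusted p-values of 0.0518 and 0.0918 and *ugt-26* passed (0.0490). *mbl-1* had -1.17 (adjusted p = 0.0543). With 3 libraries per strain, genes of few counts are limited by depth: the 11 members not tested had at most 14 counts in a library.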
